A study of Mus musculus with 28 samples.

Results

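The genes described here encode voltage-gated sodium and calcium channels and their companion subunits. They were taken by symbol from the deposited gene tables: every gene whose symbol begins with Scn and a digit, or with Cacna, Cacnb or Cacng. This gave 34 of 14711 genes. Of these, 15 encode or are named as pore or pore-like subunits (8 sodium, 7 calcium) and 19 encode auxiliary subunits (4 sodium, 15 calcium). Scn2a appears under its older symbol Scn2a1. The family members Cacna1b, Cacna1g, Cacna1h, Cacnb2, Scn4a and Scn9a were not analysed here.

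A sodium channel is 1 large pore protein that opens when the membrane depolarises and carries the rising phase of the action potential. Auxiliary beta subunits such as Scn2b and Scn3b bind it and alter its gating and its place in the membrane. A high-voltage calcium channel joins a pore subunit (Cacna1) to an intracellular beta subunit (Cacnb) and an extracellular alpha2delta subunit (Cacna2d), and lets in the calcium that drives transmitter release and signalling to the nucleus. Most neuronal Cacng genes encode partners of AMPA-type glutamate receptors, although the family is named after a calcium channel subunit of muscle. In hippocampus Scn2a and Scn8a are known as sodium channels of excitatory neurons and their axons, Scn1a as one on which fast-spiking interneurons rely, and Scn3a as one that in rodents is most abundant before birth.

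RNA was measured in hippocampal CA1 of C57BL/6 mice aged 3 to 4 weeks. All mice carried RiboTag, a ribosomal protein gene (Rpl22) that gains an HA tag wherever Cre recombinase is active. In CaMK2a-Cre/+; LSL-Rpl22-HA/+ mice the tag is placed by a Cre under the CaMK2a promoter, which is active in excitatory pyramidal neurons. In PV-Cre/+; LSL-Rpl22-HA/+ mice it is placed in cells that express parvalbumin, mostly fast-spiking interneurons. Mice received kainic acid (KA), a glutamate receptor agonist that provokes seizures, or PBS, by intraperitoneal injection. By the labels tissue was collected at 6 h for both, but column headings in the tables mark PBS samples with an earlier hour, so when PBS mice were sampled is uncertain. From each lysate an anti-HA immunoprecipitate (IP) held RNA bound to tagged ribosomes, and a fraction taken before it (input) held RNA of all CA1 cells. The 8 groups are therefore KA and PBS, IP and input, in each line, each with 3 libraries for CaMK2a-Cre (4 mice pooled per library) and 4 for PV-Cre (9 to 10 mice pooled). The libraries started from 20 ng of RNA in the CaMK2a line and 2.5 ng in the PV line.

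The gene tables held 6.06 to 15.8 M counted reads per library. The biological coefficient of variation was 14.8% and 12.6% in the CaMK2a IP and input comparisons of KA with PBS, and 44.3% and 27.2% in those of the PV line. In every PV group replicate 4 stood apart: its deviations from the group mean across 8189 genes correlated between KA and PBS at 0.55 (IP) and 0.81 (input). Interneuron markers checked the IP: all 5 were lower in IP than in input in the CaMK2a line after KA and after PBS, and in the PV line 5 of 5 after KA and 4 of 5 after PBS were higher. Of 5 pyramidal markers 2 were higher and 1 lower in the CaMK2a IP than in input after KA, and 4 higher and 1 lower after PBS. In the PV line 1 of 5 pyramidal markers was lower in IP than in input after KA, and 5 of 5 after PBS. They were still read in the PV IP. Levels are in CPM (counts scaled to library size with TMM factors over all 28 libraries). Their sum there was 3337.3 to 6573.2 CPM after KA, against 7569.0 to 8367.8 CPM in input. After PBS it was 4192.8 to 5287.9 CPM, against 8693.8 to 9601.6 CPM in input. Over all genes 50.1% and 64.2% were called after KA and PBS in the CaMK2a line, and 11.0% and 18.5% in the PV line.

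Of the 34 genes, 26 had enough reads to be tested in all 12 comparisons and 5 in none. The untested ones were Cacna1f, Cacna1s, Cacng1, Scn10a and Scn11a, genes known from retina, skeletal muscle and sensory neurons, with 27, 66, 5, 9 and 34 reads over all 28 libraries. Cacng6 was tested in 10 comparisons and Scn7a in 11. Of the 66 Cacna1s reads, 26 and 20 came from PV KA IP replicates 1 and 2, and no other library held more than 6. Exons of Cacna1a, Cacna1d, Cacna1s, Cacna2d2 and Cacnb4 overlap an exon of another gene on the opposite strand, and strandedness is not stated in the sources used here, so reads of such partners cannot be told apart.

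Promoters are shown for 2 members. Cacng5, the 1 member with a match to the motif in capitals, fell after KA in the CaMK2a line at low levels. Its IP call was lost when 1 library was left out. Cacna2d2 set the lines furthest apart. The promoters run from 250 bases before to 50 after a RefSeq start on GRCm38.p6, 5′ to 3′ on the gene's strand. They lie at chr11:107915006-107915305 (minus strand) and chr9:107399630-107399929 (plus strand). Capitals mark the motif TGANTCA, the letters of an AP-1 site, the kind bound by the immediate-early Fos and Jun proteins.
Cacng5: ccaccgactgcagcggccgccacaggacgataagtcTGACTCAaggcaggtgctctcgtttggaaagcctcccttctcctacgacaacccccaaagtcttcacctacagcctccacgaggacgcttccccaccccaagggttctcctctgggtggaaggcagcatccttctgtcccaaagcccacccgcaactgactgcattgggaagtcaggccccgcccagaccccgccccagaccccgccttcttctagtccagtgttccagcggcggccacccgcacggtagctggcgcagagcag
Cacna2d2: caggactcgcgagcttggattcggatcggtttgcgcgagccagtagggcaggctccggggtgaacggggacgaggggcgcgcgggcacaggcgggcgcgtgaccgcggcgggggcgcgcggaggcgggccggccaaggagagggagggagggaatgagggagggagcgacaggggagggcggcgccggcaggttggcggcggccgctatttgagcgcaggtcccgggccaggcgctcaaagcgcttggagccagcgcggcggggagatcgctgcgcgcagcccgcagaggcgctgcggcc
RefSeq gave 36 promoters for 26 of the 34 genes. TGANTCA, searched on both strands, stood in 1 of these 36 promoters, that of Cacng5 shown, and in 7.81% of all 32851 promoters. TGACGTCA, the full cAMP response element, stood in 0 of the members' promoters and in 1.79% of all. Its shorter form TGACG, which the full element contains, stood in promoters of Cacna1c, Cacna1i, Cacna2d1 and Scn10a and in 20.8% of all. Of the serum response element only 1 fixed form of the core was searched, so its other forms were not tested. That form and the REST fragment TTCAGCACC stood in 0 of the members' promoters and in 0.0639% and 0.371% of all. The promoter of the other RefSeq start of Cacng5 (chr11:107911313-107911612) held none of these motifs. Nor did the promoters of Scn1a, Scn2a1, Scn2b, Scn8a, Cacna1d, Cacnb3 and Cacng3, which also changed after KA in the CaMK2a line. The members' promoters had a median GC content of 58.3%, against 52.7% over all promoters. These matches describe letters in the window.

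Levels are compared between genes as the deposited RPKM (reads scaled to the listed gene length and to the library total). In the CaMK2a PBS IP the sodium pores Scn2a1 (18.8 ± 0.781 RPKM, SD, n = 3) and Scn8a (16.4 ± 0.619) led the pore subunits. The R-type calcium pore Cacna1e (9.5 ± 0.11), Scn1a (4.59 ± 0.346) and the P/Q-type pore Cacna1a (3.92 ± 0.162) followed. In the PV PBS IP the order was Scn8a (22.8 ± 4.29 RPKM, SD, n = 4), Scn1a (16.1 ± 0.631), Scn2a1 (9.57 ± 1.01), Cacna1a (7.46 ± 0.686) and Cacna1e (5.39 ± 0.975). Scn8a and Scn1a overlapped there (16.7 to 26.5 and 15.7 to 17.1 RPKM), so their order lay within the spread between libraries. After KA the order at the top was kept by mean in both IPs: Scn2a1 (13.2 ± 0.94 RPKM) and Scn8a (11.3 ± 1.33) in the CaMK2a KA IP, with overlapping ranges, and Scn8a (21.5 ± 4.78) and Scn1a (14.2 ± 2.11) in the PV KA IP.

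Among auxiliary subunits Scn3b led in the CaMK2a PBS IP at 42.7 ± 0.512 RPKM, with Scn2b at 29.6 ± 1.83 and Cacng3 at 23.2 ± 1.42. In the CaMK2a KA IP the highest mean belonged to Cacng3 (40.9 ± 13.4 RPKM), while Scn3b stood at 24.4 ± 4.54. In the PV IP, Cacng7 led by mean after KA (30.4 ± 3.84 RPKM) and after PBS (31.8 ± 5.84).

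After KA, most but not all sodium channel genes tested fell in the CaMK2a line. Calcium channel pores other than Cacna1d did not pass the test, and 1 gene of the whole set, Cacng3, rose. The same 10 genes fell in the IP and in the input, which come from the same lysates, and Cacng3 rose in both. The IP had 1 higher and 10 lower of 27 members tested, against 35.1% of all genes called there (19.8% higher and 15.3% lower). The input had 1 higher and 10 lower of 29 members tested, against 35.0% of all genes (19.3% higher and 15.7% lower). The median log2 fold change of the members was -0.20 in the IP and -0.26 in the input, and over all genes tested it was 0.01 and -0.02. With upper-quartile in place of TMM factors the split of all genes called in the IP was 1674 higher and 2276 lower, against 2111 and 1633, while members were 1 higher (Cacng3) and 11 lower. The share of IP members called in either direction, 40.7%, was near the background. Calls are edgeR quasi-likelihood tests with Benjamini-Hochberg adjusted p below 0.05, and p-values measure the spread between pools of mice. In these pooled samples fewer cells of a type and less RNA per cell cannot be told apart.

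In the CaMK2a line 4 of 5 tested sodium pores fell in the IP and 4 of 6 in the input. Scn3a (gene ID 20269, mm10 chromosome 2, 65457118 to 65567527, minus strand, 28 exons) had 19.9, 34.7 and 27.5 CPM in the KA IP libraries of the CaMK2a line, against 54.5, 66.8 and 62.1 CPM in its PBS IP libraries. In the inputs it had 22.1, 24.4 and 13.5 CPM after KA, against 54.7, 56.8 and 50.0 CPM after PBS. Every KA library lay below every PBS library in both fractions. The log2 fold change was -1.15 ± 0.18 (SE) in the IP, 2.21-fold lower (adjusted p = 0.001, edgeR), and -1.42 ± 0.17 in the input, 2.67-fold lower (adjusted p = 3.3e-06, edgeR).

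Scn1a (gene ID 20265, chromosome 2, 66270781 to 66440837, minus strand, 29 exons) lies in the same cluster of sodium channel genes as Scn3a, Scn2a1 and Scn7a. It had 116, 92.4 and 94.9 CPM in the KA IP of the CaMK2a line, against 147, 131 and 130 CPM in the PBS IP. In the inputs it had 83.8, 73.4 and 64.7 CPM after KA, against 113, 105 and 109 CPM after PBS. The groups did not overlap, but the change was smaller than that of Scn3a: -0.42 ± 0.11 in the IP (adjusted p = 0.018, edgeR) and -0.56 ± 0.11 in the input (adjusted p = 7.2e-04, edgeR). The IP call was lost without KA IP replicate 3 (-0.38, adjusted p = 0.069) or without PBS IP replicate 1 (-0.36, adjusted p = 0.086).

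Scn2a1 (gene ID 110876, chromosome 2, 65620764 to 65767447, plus strand, 29 exons), the leading sodium pore of the CaMK2a IP, had 468, 423 and 404 CPM in the KA IP, against 603, 565 and 568 CPM in the PBS IP. In the inputs it had 219, 212 and 174 CPM after KA, against 326, 333 and 333 CPM after PBS. All KA libraries were again below all PBS libraries, with log2 fold changes of -0.41 ± 0.09 in the IP (adjusted p = 0.0045, edgeR) and -0.71 ± 0.10 in the input (adjusted p = 1.7e-05, edgeR). Scn8a (gene ID 20273, chromosome 15, 100869823 to 101045938, plus strand), the main pore of axon initial segments and nodes of Ranvier, fell by 0.45 ± 0.10 on the log2 scale in the IP (adjusted p = 0.0056, edgeR) and by 0.64 ± 0.10 in the input (adjusted p = 8.5e-05, edgeR). Its IP levels were 522, 623 and 504 CPM after KA, against 741, 718 and 802 CPM after PBS. The summed RPKM of all sodium pores was 26.5 to 29.8 in the KA IP, against 41.1 to 42.3 in the PBS IP, and 16.4 to 19.9 in the KA input, against 31.2 to 32.4 in the PBS input. These sums carry no TMM factors, which were lower after KA than after PBS in both fractions, and this lowers the KA sums.

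**Figure D1:**
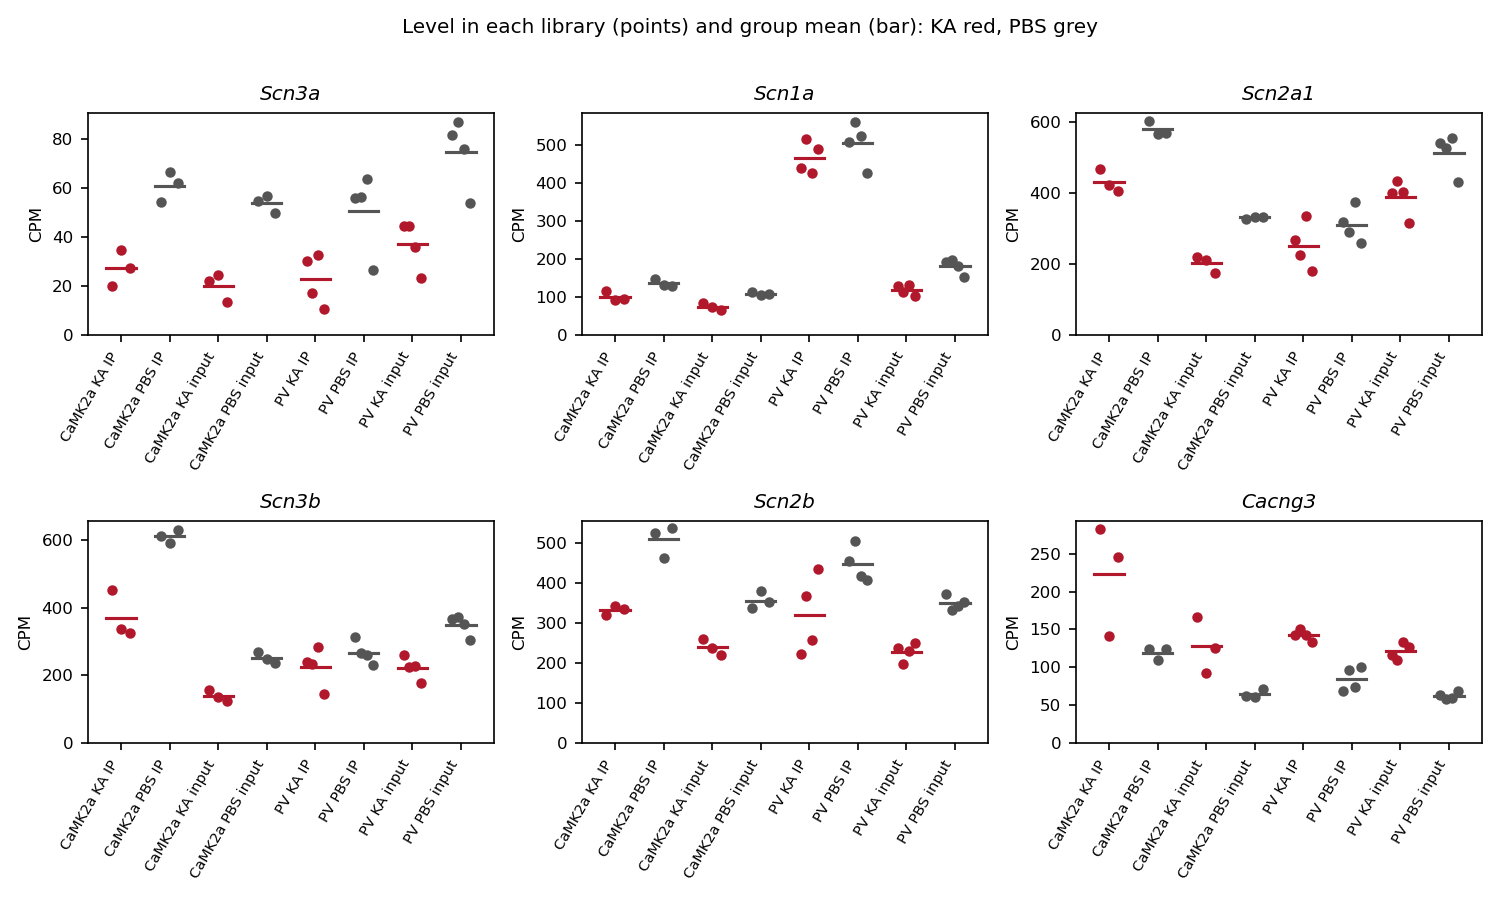
Normalised read counts (CPM, y axis) of Scn3a, Scn1a, Scn2a1, Scn3b, Scn2b and Cacng3 in each library (points) with the mean of each group (bars), in the 8 groups of Cre line, fraction and treatment, KA in red and PBS in grey. The 3 KA libraries of the CaMK2a IP sit between 19.9 and 34.7 CPM for Scn3a, all below the PBS libraries (54.5 to 66.8 CPM), and those of Cacng3 sit at 141 to 282 CPM, all above 109 to 124 CPM.

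Of the 4 sodium channel beta subunits, 2 fell in both fractions of the CaMK2a line. Scn3b (gene ID 235281, chromosome 9, 40269187 to 40291618, plus strand, 6 exons) had 452, 336 and 324 CPM in the KA IP, against 612, 592 and 631 CPM in the PBS IP. In the inputs it had 158, 136 and 123 CPM after KA, against 270, 249 and 238 CPM after PBS. No KA library reached a PBS library, and the log2 fold change was -0.71 ± 0.13 in the IP (adjusted p = 0.0019, edgeR) and -0.86 ± 0.10 in the input (adjusted p = 4.3e-06, edgeR).

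Scn2b (gene ID 72821, chromosome 9, 45117876 to 45130070, plus strand, 6 exons), which is joined to the pore by a disulphide bond, had 321, 344 and 335 CPM in the KA IP of the CaMK2a line, against 527, 464 and 539 CPM in the PBS IP. The KA libraries were closely grouped and all lower, with a log2 fold change of -0.61 ± 0.08 in the IP (adjusted p = 5.0e-04, edgeR) and -0.57 ± 0.09 in the input (adjusted p = 1.4e-04, edgeR). Scn4b did not pass the test in either fraction. The summed RPKM of the sodium beta subunits averaged 71.1 in the KA IP, against 105 in the PBS IP, and 57.9 in the KA input, against 74.4 in the PBS input. These sums too carry no TMM factors.

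Of 5 calcium channel pores tested, 1 fell. Cacna1d (gene ID 12289, chromosome 14, 30039939 to 30491156, minus strand, 53 exons), an L-type pore that opens at relatively negative voltages, had 23.2, 20.0 and 18.8 CPM in the KA IP of the CaMK2a line, against 36.9, 36.5 and 30.1 CPM in the PBS IP. In the inputs it had 19.7, 22.6 and 16.3 CPM after KA, against 33.5, 36.9 and 32.8 CPM after PBS. The groups did not overlap in either fraction, with log2 fold changes of -0.73 ± 0.14 (adjusted p = 0.0033, edgeR) and -0.81 ± 0.15 (adjusted p = 4.0e-04, edgeR). Cacna1e, the most abundant calcium pore of the CaMK2a IP, had 727, 765 and 705 CPM after KA, against 729, 707 and 754 CPM after PBS, and these groups overlapped. The other L-type pore of neurons, Cacna1c, had 98.7, 123 and 104 CPM after KA, against 95.6, 110 and 122 CPM after PBS, and also overlapped. The summed RPKM of the calcium pores was 15.2 to 16.3 in the KA IP, against 17 to 17.4 in the PBS IP. In the inputs it was 16.3 to 17.7 after KA, against 20.2 to 20.4 after PBS. There all 5 calcium pores tested had a negative log2 fold change. RPKM carry no TMM factors, which were 0.953 to 0.955 in the KA IP and 0.995 to 1.04 in the PBS IP. This lowers KA sums relative to PBS sums. In the fits with TMM factors the median log2 fold change of the calcium pores was 0.00 in the IP (3 positive, 2 negative) and -0.17 in the input.

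Of the calcium channel auxiliary subunits 13 were tested in the CaMK2a IP and 14 in the input, and in each fraction 3 fell and 1 rose. Cacng3 (gene ID 54376, chromosome 7, 122671744 to 122769393, plus strand, 4 exons), an AMPA receptor partner of excitatory neurons, had 282, 141 and 245 CPM in the KA IP, against 124, 109 and 124 CPM in the PBS IP. In the inputs it had 167, 92.3 and 126 CPM after KA, against 61.7, 61.2 and 71.5 CPM after PBS. Replicate 2 was the lowest KA library in both fractions, yet every KA library lay above every PBS library. The log2 fold change was 0.91 ± 0.21 in the IP, 1.88-fold higher (adjusted p = 0.0082, edgeR), and 0.99 ± 0.16 in the input, 1.98-fold higher (adjusted p = 1.1e-04, edgeR).

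The 3 calcium auxiliary genes that fell were Cacnb3, Cacna2d1 and Cacng5. Cacnb3, a beta subunit, changed by -0.58 ± 0.12 in the IP (adjusted p = 0.0037, edgeR) and by -0.55 ± 0.11 in the input (adjusted p = 8.2e-04, edgeR). Its IP levels were 112, 152 and 135 CPM after KA, against 198, 187 and 215 CPM after PBS. Cacna2d1, an alpha2delta subunit and a binding site of gabapentin, changed by -0.42 ± 0.09 in the IP (adjusted p = 0.0048, edgeR) and by -0.51 ± 0.13 in the input (adjusted p = 0.0047, edgeR). Cacng5 (gene ID 140723, chromosome 11, 107874605 to 107915055, minus strand, 7 exons) had 9.79, 10.6 and 9.98 CPM in the KA IP, against 14.7, 14.4 and 18.9 CPM in the PBS IP. All KA libraries were below all PBS libraries at these low levels, and the log2 fold change was -0.65 ± 0.17 (adjusted p = 0.016, edgeR). That call was lost without PBS IP replicate 3 (-0.52, adjusted p = 0.087). In the input Cacng5 changed by -0.69 ± 0.16 (adjusted p = 0.0022, edgeR).

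**Figure D2:**
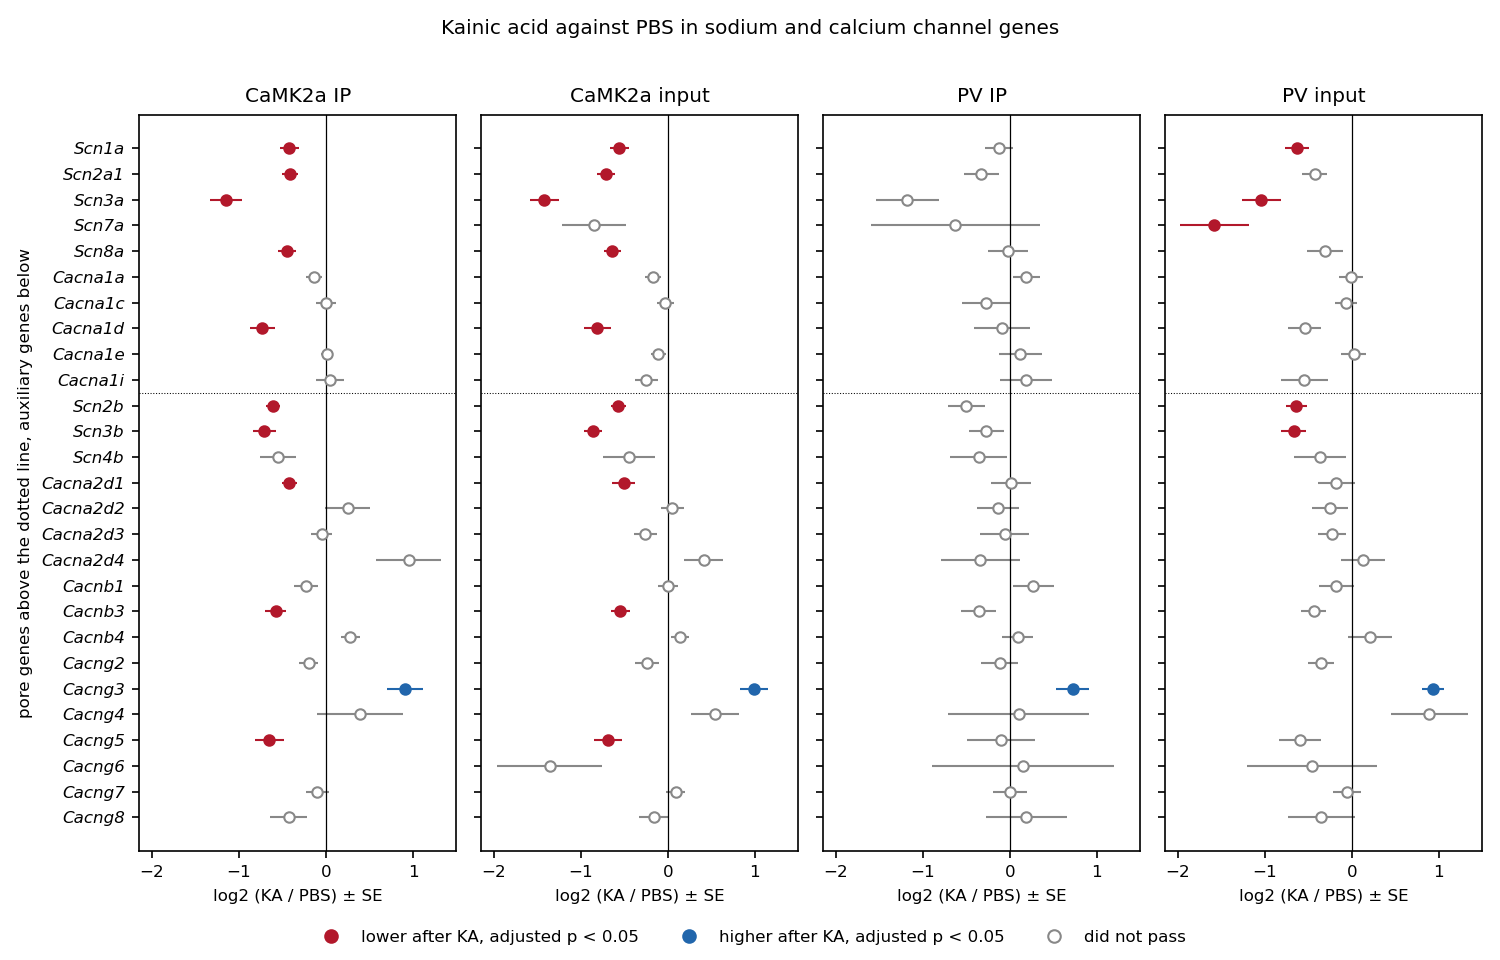
Log2 fold change of KA over PBS (x axis, point) with its SE (bar) for 27 genes tested in at least 1 of the 4 fractions (panels), pore subunits above the dotted line and auxiliary subunits under it. Filled red points fell, filled blue points rose and open points did not pass the test; Scn3a is at -1.15 in the CaMK2a IP and -1.42 in the CaMK2a input, and Cacng3 is the rising member called in all 4 fractions.

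In the PV line the inputs, which hold RNA of all CA1 cells as those of the other line do, had 1 higher and 5 lower of 29 members tested, against 11.6% of all genes called (8.21% higher and 3.36% lower). The 5 that fell were sodium channel genes: the pores Scn1a, Scn3a and Scn7a and the beta subunits Scn2b and Scn3b. None of the 5 calcium pores passed the test. Of the 10 genes that fell in the CaMK2a input, 40% were called in the PV input, and these 4 made up 80% of the 5 called there. The median log2 fold change of the members was -0.31, against -0.02 over all genes tested.

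Scn3a had 44.4, 44.6, 35.8 and 23.3 CPM in the PV KA input, against 81.8, 87.0, 76.2 and 54.2 CPM in the PV PBS input. Replicate 4 was lowest in both groups, and the groups did not overlap, with a log2 fold change of -1.04 ± 0.22 (adjusted p = 0.0097, edgeR). Scn1a had 130, 114, 131 and 103 CPM in the PV KA input, against 191, 198, 182 and 153 CPM in the PV PBS input, a log2 fold change of -0.63 ± 0.14 without overlap (adjusted p = 0.011, edgeR). Scn2b had 239, 197, 230 and 250 CPM in the PV KA input, against 374, 333, 342 and 353 CPM in the PV PBS input. Its groups were also apart, at -0.64 ± 0.12 (adjusted p = 0.0042, edgeR). Scn3b had 261, 226, 227 and 178 CPM in the PV KA input, against 367, 372, 351 and 304 CPM in the PV PBS input, again without overlap (-0.67 ± 0.14, adjusted p = 0.0087, edgeR).

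Scn7a, a channel-like protein known as a sodium sensor, fell to 17, 11, 13 and 12 reads in the PV KA input libraries, against 50, 34, 47 and 46 reads in the PV PBS input libraries. The groups did not overlap (-1.58 ± 0.40, adjusted p = 0.023, edgeR), but the call was lost when KA input replicate 2 or 3, or PBS input replicate 1 or 3, was left out (adjusted p of 0.06 to 0.085). Cacng3 rose to 116, 110, 134 and 127 CPM in the PV KA input, against 63.9, 58.7, 59.0 and 68.1 CPM in the PV PBS input. All 4 KA libraries were higher, by 0.93 ± 0.13 on the log2 scale or 1.91-fold (adjusted p = 6.0e-04, edgeR).

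The PV input libraries of replicate 4 varied together between KA and PBS, while replicates 1 to 3 correlated about as well across numbers. A fit with the replicate number as a block called 2 higher and 12 lower members. Over all genes it called 1835 higher and 1590 lower, against 915 and 374 without it. The 12 were the 5 genes above with Cacna1d, Cacna1i, Cacnb3, Cacng2, Cacng5, Scn2a1 and Scn8a, and the second higher gene was Cacnb4. Without the block Scn2a1 and Scn8a did not pass the test, and Scn8a had a log2 fold change of -0.31 ± 0.21 (adjusted p = 0.42, edgeR). With PV replicates 1 to 3 alone 2 members were higher and 9 lower, with 1608 higher and 1150 lower over all genes.

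In the PV IP 1 of 28 members passed the test, against 4.85% of all genes (4.05% higher and 0.801% lower), and the median log2 fold change was -0.07 over the members and -0.02 over all genes. Cacng3 had 142, 151, 142 and 134 CPM in the PV KA IP, against 68.1, 96.6, 73.8 and 101 CPM in the PV PBS IP. All 4 KA libraries lay above all 4 PBS libraries, 1.64-fold higher (log2 fold change 0.72 ± 0.19, adjusted p = 0.04, edgeR). This call was lost in 6 of 8 fits that left out 1 library (KA IP replicate 1, 2 or 3, or PBS IP replicate 1, 2 or 3; adjusted p of 0.074 to 0.15) and with upper-quartile factors (0.65, adjusted p = 0.068). In the authors' deposited table Cacng3 had a fold change of 1.64 and an FDR of 0.0222 there.

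No member was called lower in the PV IP by the edgeR quasi-likelihood test, while 3 members had an unadjusted p under 0.05 (Cacng3, Scn2b and Scn3a) and DESeq2 called 2 members, Cacng3 and Scn3a. Scn3a had 30.3, 17.2, 32.9 and 10.7 CPM in the PV KA IP, against 56.2, 56.5, 63.8 and 26.5 CPM in the PV PBS IP. Replicate 4 was lowest in both groups, and its PBS library lay inside the range of the KA libraries. The log2 fold change was -1.18 ± 0.36 (adjusted p = 0.076, edgeR). DESeq2 gave an adjusted p of 0.024, and the authors' deposited table gives Scn3a a fold change of 0.442 with an FDR of 0.0371. With PV replicates 1 to 3 alone the value was -1.15 (adjusted p = 0.027, edgeR).

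Scn1a had 439, 515, 426 and 490 CPM in the PV KA IP, against 508, 560, 523 and 427 CPM in the PV PBS IP. These groups overlapped (-0.13 ± 0.16, adjusted p = 0.75, edgeR). Scn2b had 223, 367, 259 and 436 CPM in the PV KA IP, against 455, 507, 419 and 409 CPM in the PV PBS IP, with overlap through replicate 4 (-0.50 ± 0.21, adjusted p = 0.23, edgeR). Scn3b had a log2 fold change of -0.27 ± 0.20 and Cacna1d of -0.09 ± 0.32, and both groups of libraries overlapped for each. The summed RPKM of the sodium pores was 38.2 to 47.1 in the PV KA IP, against 42.7 to 55 in the PV PBS IP. It carries no TMM factors, which ran from 0.907 to 1.05 in the PV KA IP and from 0.946 to 1.13 in the PV PBS IP.

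The difference between the KA effects of 2 fractions was tested directly, with 0 of 29 members called in each of 3 such tests by edgeR and 0 by DESeq2. These fits took IP and input of 1 lysate as independent. With the replicate number as a block 0 members were called in IP minus input of either line. DESeq2 gave no adjusted p to 4 members in IP minus input of the CaMK2a line and to 4 in PV IP minus CaMK2a IP. For IP minus input in the CaMK2a line 0 members had an unadjusted p under 0.05, and 0.103% of all genes were called (0.043% higher and 0.0602% lower). Scn3a differed there by 0.23 ± 0.27 on the log2 scale and Scn1a by 0.10 ± 0.17. For IP minus input in the PV line 1 member, Scn1a, had an unadjusted p under 0.05, and 0.0253% of all genes were called (0.00843% higher and 0.0169% lower). Its KA effect was 0.53 ± 0.19 higher in the IP than in the input (adjusted p = 1, edgeR), and that of Scn3a differed by -0.10 ± 0.44. For PV IP minus CaMK2a IP the member with an unadjusted p under 0.05 was Cacna2d4 (-1.30 ± 0.59, adjusted p = 0.8, edgeR), and 0.0934% of all genes were called (0.0255% higher and 0.0679% lower). Scn3a differed by -0.03 ± 0.48, Scn1a by 0.29 ± 0.20 and Cacng3 by -0.19 ± 0.29. The SE of 0.48 for Scn3a is wide beside its KA effects, and a p that misses the threshold does not show that the lines respond alike.

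IP was next compared with input within each line, which sets the RNA on tagged ribosomes beside that of all CA1 cells. In the CaMK2a line 11 members were higher and 7 lower in the IP after KA, of 28 tested, against 50.1% of all genes called (24.3% higher and 25.8% lower). After PBS 15 were higher and 9 lower of 29, against 64.2% of all genes (32.6% higher and 31.6% lower). All 11 higher and all 7 lower genes of the KA comparison were also called after PBS, where they made up 73.3% of the higher and 77.8% of the lower genes.

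Cacnb4 (gene ID 12298, chromosome 2, 52428320 to 52676609, minus strand), a calcium channel beta subunit, stood highest over input in the CaMK2a line by fold. It had 807, 595 and 751 CPM in the KA IP, against 281, 250 and 205 CPM in the KA input, and 596, 562 and 626 CPM in the PBS IP, against 229, 216 and 224 CPM in the PBS input. All IP libraries were far above all inputs, with log2 fold changes of 1.53 ± 0.16 after KA (adjusted p = 2.0e-05, edgeR) and 1.43 ± 0.06 after PBS (adjusted p = 3.2e-12, edgeR). Scn3b followed, at 1.40 ± 0.16 after KA (adjusted p = 3.6e-05, edgeR) and 1.30 ± 0.06 after PBS (adjusted p = 1.4e-11, edgeR). Scn2a1 was higher in the IP by 1.08 ± 0.13 after KA (adjusted p = 6.2e-05, edgeR) and by 0.83 ± 0.05 after PBS (adjusted p = 9.6e-10, edgeR). The library values of Scn3b and Scn2a1 given above show the same separation of IP from input.

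Cacna2d3, an alpha2delta subunit, had 90.0, 85.3 and 105 CPM in the CaMK2a KA IP, against 43.3, 47.5 and 56.1 CPM in the KA input, without overlap (0.91 ± 0.15, adjusted p = 4.4e-04, edgeR). Cacnb1, a beta subunit, had 161, 126 and 146 CPM in the CaMK2a PBS IP, against 65.6, 75.1 and 86.7 CPM in the PBS input, also without overlap (0.96 ± 0.10, adjusted p = 2.4e-07, edgeR). Cacng3 was higher in the IP by 0.90 ± 0.08 after PBS (adjusted p = 4.8e-08, edgeR) and by 0.78 ± 0.25 after KA (adjusted p = 0.024, edgeR), where IP and input libraries overlapped. The KA call of Cacng3 was lost in 3 of 6 fits that left out 1 library (adjusted p of 0.085 to 0.12) and with upper-quartile factors (0.65, adjusted p = 0.051). Scn1a was higher in the CaMK2a IP by 0.43 ± 0.15 after KA (adjusted p = 0.033, edgeR) and 0.34 ± 0.07 after PBS (adjusted p = 4.0e-04, edgeR), and the KA call was lost with upper-quartile factors (0.31, adjusted p = 0.1) and in 4 of 6 fits that left out 1 library (adjusted p of 0.058 to 0.11). Scn3a did not pass the test, at 0.43 ± 0.25 after KA and 0.19 ± 0.09 after PBS.

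The 7 genes lower in the CaMK2a IP than in input after both treatments were Cacna2d2, Cacng7, Cacng5, Cacna1c, Cacna1a (-0.49 ± 0.12 after KA and -0.48 ± 0.06 after PBS), Cacng4 (-2.21 ± 0.38 and -1.97 ± 0.36) and Cacna2d4 (-0.83 ± 0.31 and -1.30 ± 0.27). The KA call of Cacna2d4 was lost in 5 of 6 fits that left out 1 library (adjusted p of 0.063 to 0.13, edgeR). Cacna1i and Scn7a (-2.25 ± 0.47) were lower after PBS. Cacna2d2 (gene ID 56808, chromosome 9, 107399749 to 107529346, plus strand), an alpha2delta subunit, had 11.9, 24.6 and 18.9 CPM in the KA IP, against 42.8, 42.4 and 32.4 CPM in the KA input, and 15.1, 11.8 and 19.9 CPM in the PBS IP, against 38.3, 37.0 and 39.0 CPM in the PBS input. It was below its input in every library, by -1.10 ± 0.24 on the log2 scale after KA (adjusted p = 0.0024, edgeR) and -1.26 ± 0.14 after PBS (adjusted p = 7.0e-07, edgeR). Cacng7 (gene ID 81904, chromosome 7, 3332342 to 3368222, plus strand), an AMPA receptor partner, had 93.4, 66.8 and 85.1 CPM in the KA IP, against 169, 143 and 175 CPM in the KA input, without overlap (-1.01 ± 0.16, adjusted p = 2.7e-04, edgeR). After PBS it stood at -0.77 ± 0.08 (adjusted p = 1.7e-07, edgeR).

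Cacng5 had 9.79, 10.6 and 9.98 CPM in the KA IP, against 19.6, 17.3 and 17.9 CPM in the KA input, and 14.7, 14.4 and 18.9 CPM in the PBS IP, against 27.0, 34.8 and 27.0 CPM in the PBS input. The fractions were apart, by -0.87 ± 0.19 on the log2 scale after KA (adjusted p = 0.0028, edgeR) and -0.87 ± 0.14 after PBS (adjusted p = 4.6e-05, edgeR). Cacna1c had 98.7, 123 and 104 CPM in the KA IP, against 151, 179 and 146 CPM in the KA input, with no overlap (-0.56 ± 0.14, adjusted p = 0.0058, edgeR). Cacna1i, a T-type pore, had 40.4, 33.3 and 40.6 CPM in the PBS IP, against 58.6, 55.6 and 63.2 CPM in the PBS input, again apart (-0.61 ± 0.10, adjusted p = 3.4e-05, edgeR).

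The PV IP had another pattern. After KA 9 members were higher and 1 lower in the IP of 29 tested, against 11.0% of all genes called (6.85% higher and 4.11% lower). After PBS 9 were higher and 5 lower of 29, against 18.5% of all genes (10.6% higher and 7.98% lower). Of the 9 higher after KA 8 were also higher after PBS, 88.9% of each list. The 1 lower gene after KA, Cacna2d1, lost its call in 6 of 8 fits that left out 1 library. Scn8a, higher after KA, lost its call in 7 of 8 such fits. After PBS the call of Cacna2d3 (lower) was lost in 7 of 8 and that of Scn2b (higher) in 6 of 8. With upper-quartile factors the members split into 7 higher and 3 lower after KA and 8 higher and 7 lower after PBS, and all genes into 651 and 627 after KA, against 767 and 460 with TMM factors, and into 1019 and 1104 after PBS, against 1183 and 894. IP and input of 1 number come from 1 lysate, and with the replicate number as a block 10 were higher and 4 lower after KA, and 11 higher and 9 lower after PBS. Over all genes the block gave 1313 higher and 1082 lower after KA, and 1771 higher and 1599 lower after PBS. The genes added to the lower side by the block were Cacna1c, Cacna1e and Scn2a1 after KA, and Cacna1c, Cacng5, Scn3a and Scn3b after PBS. Scn3a stood at -0.53 ± 0.24 after PBS without the block (adjusted p = 0.16, edgeR) and at -0.58 with it (adjusted p = 0.0084).

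Cacna2d2, which was lower in the CaMK2a IP, had 159, 132, 120 and 235 CPM in the PV KA IP, against 39.4, 31.5, 22.1 and 35.8 CPM in the PV KA input. After PBS it had 123, 189, 153 and 234 CPM in the PV IP, against 38.3, 35.7, 29.0 and 46.3 CPM in the PV input. Every IP library was above every input library, 4.78-fold after PBS. The log2 fold change was 2.37 ± 0.26 after KA (adjusted p = 7.2e-05, edgeR) and 2.26 ± 0.22 after PBS (adjusted p = 1.1e-05, edgeR).

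Scn1a, whose library values are given above, was 4.05-fold higher in the PV IP than in input after KA (2.02 ± 0.17, adjusted p = 9.8e-06, edgeR) and 2.85-fold higher after PBS (1.51 ± 0.14, adjusted p = 5.5e-06, edgeR). Cacng2 (stargazin, gene ID 12300, chromosome 15, 77993623 to 78119280, minus strand), an AMPA receptor partner, had 117, 150, 103 and 196 CPM in the PV KA IP, against 33.4, 35.4, 46.4 and 37.7 CPM in the PV KA input, and 144, 136, 154 and 169 CPM in the PV PBS IP, against 45.4, 48.0, 48.0 and 50.7 CPM in the PV PBS input. It was higher in every IP library, by 1.94 ± 0.23 after KA (adjusted p = 1.3e-04, edgeR) and 1.68 ± 0.15 after PBS (adjusted p = 3.6e-06, edgeR). Scn4b, a sodium channel beta subunit, had 15.8, 14.7, 16.2 and 25.7 CPM in the PV KA IP, against 6.85, 5.24, 9.05 and 6.0 CPM in the PV KA input, without overlap (1.47 ± 0.34, adjusted p = 0.013, edgeR). The KA call of Scn4b was lost with PV replicates 1 to 3 alone. After PBS Scn4b stood at 1.44 ± 0.30 (adjusted p = 0.0044, edgeR).

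Cacng7 (1.15 ± 0.19 after KA and 1.07 ± 0.19 after PBS), Cacna1a (0.96 ± 0.16 and 0.76 ± 0.14) and Cacnb4 (0.82 ± 0.22 and 0.92 ± 0.20) were also higher in the PV IP after both treatments, and the KA call of Cacnb4 was lost in 5 of 8 fits that left out 1 library (adjusted p of 0.054 to 0.087, edgeR). Lower in the PV PBS IP was Cacna2d1, with 121, 119, 154 and 92.3 CPM, against 287, 278, 287 and 199 CPM in the PV PBS input, with no overlap (-1.08 ± 0.17, adjusted p = 6.8e-04, edgeR). Cacna1e had 485, 530, 471 and 279 CPM in the PV PBS IP, against 833, 806, 793 and 617 CPM in the PV PBS input (-0.76 ± 0.18, adjusted p = 0.0097, edgeR). Scn2a1 had 319, 291, 374 and 259 CPM in the PV PBS IP, against 539, 526, 554 and 431 CPM in the PV PBS input (-0.69 ± 0.14, adjusted p = 0.0042, edgeR). For both genes every IP library lay below every input library. Cacnb1 had 38.8, 32.1, 27.7 and 41.6 CPM in the PV PBS IP, against 50.0, 60.7, 45.0 and 74.4 CPM in the PV PBS input, without overlap (-0.68 ± 0.21, adjusted p = 0.039, edgeR). That call was lost in 6 of 8 fits that left out 1 library (adjusted p of 0.052 to 0.11).

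The difference between the lines in IP over input after PBS was tested directly. Of 29 members 8 were more enriched in the PV IP and 7 in the CaMK2a IP, against 27.5% of all genes (13.3% and 14.3%). The members called made up a larger share than the background in both directions. More enriched in the PV line were Cacna2d2 (3.47 ± 0.31 on the log2 scale, an 11.0-fold ratio of enrichments, adjusted p = 4.1e-07, edgeR), Cacng7 (1.78 ± 0.24), Cacng2 (1.58 ± 0.17), Cacna1a (1.18 ± 0.16) and Scn1a (1.12 ± 0.17). Cacng4 (1.93 ± 0.69) and Cacna2d4 (1.37 ± 0.41), both of low level, were called on the same side, but of 14 fits that left out 1 library the call was lost in 10 for Cacng4 (adjusted p of 0.052 to 0.12, edgeR) and in 3 for Cacna2d4 (0.052 to 0.068).

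More enriched in the CaMK2a line were Cacna2d1 (-1.98 ± 0.22, adjusted p = 4.1e-06, edgeR), Scn3b (-1.70 ± 0.17, adjusted p = 1.0e-06, edgeR), Cacnb1 (-1.69 ± 0.26) and Scn2a1 (-1.57 ± 0.18, adjusted p = 4.7e-06, edgeR). Cacna2d3 (-1.48 ± 0.29), Cacna1e (-1.21 ± 0.23) and Cacnb3 (-0.55 ± 0.18) were on the same side. The call of Cacnb3 was lost in 5 of 14 fits that left out 1 library (adjusted p of 0.052 to 0.092, edgeR) and with upper-quartile factors (-0.46, adjusted p = 0.078). The alpha2delta genes, calcium pores and sodium pores each had members on both sides. Scn8a differed by 0.04 ± 0.26. Scn3a, at -0.78 ± 0.32, did not pass the test (adjusted p = 0.084, edgeR), but did with the replicate number as a block (-0.83, adjusted p = 0.0039) and with PV replicates 1 to 3 alone (-0.65, adjusted p = 0.0045). The PV lysates and libraries differ from the CaMK2a ones in mice per pool and RNA input, which cannot be told apart from the Cre line.

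Markers of cells without the tag moved with these differences, in a test that called 27.5% of all genes. Relative to input after PBS, 3 of 3 astrocyte, 3 of 3 oligodendrocyte, 3 of 3 oligodendrocyte precursor and 4 of 5 microglial markers were less depleted in the PV IP than in the CaMK2a IP, with 0 of 3 endothelial markers called. The oligodendrocyte markers summed to 3169.5 to 4898.5 CPM in the PV PBS IP, against 620 to 1242.8 CPM in the CaMK2a PBS IP, and the astrocyte markers to 261 to 316 CPM, against 67.8 to 124 CPM. The precursor markers summed to 58.8 to 112 CPM in the PV PBS IP, against 13.1 to 21.9 CPM in the CaMK2a PBS IP, and the microglial markers to 52 to 76.2 CPM, against 14.4 to 31.3 CPM. Of the markers of the tagged cells themselves, 5 of 5 interneuron markers were more enriched in the PV IP (2255.0 to 3089.0 CPM, against 73.6 to 122 CPM) and 4 of 5 pyramidal markers in the CaMK2a IP. The part of the glial markers in the differences of Cacna2d2, Cacng4, Cacng7, Cacna2d4 and the other channel genes was not tested.

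**Figure D3:**
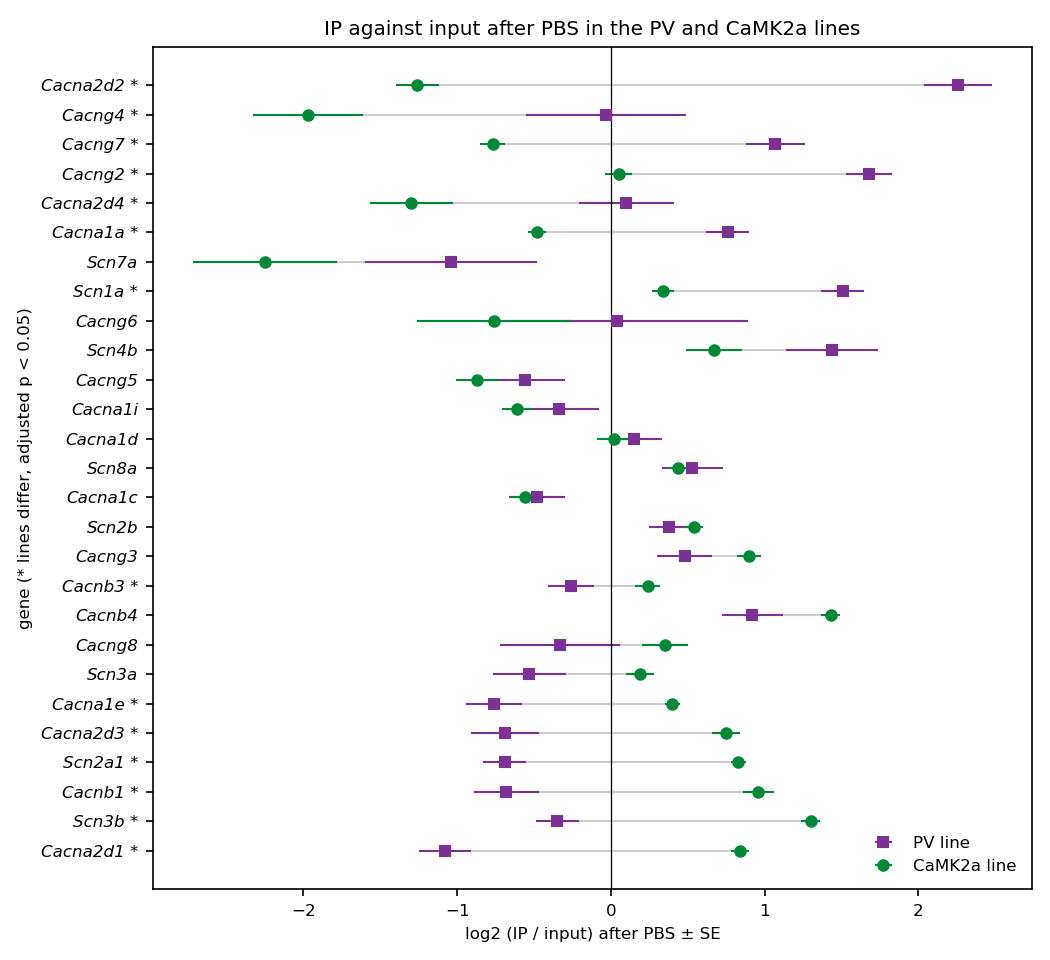
Log2 fold change of IP over input after PBS (x axis) with its SE (bar) for each gene shown, PV line as purple squares and CaMK2a line as green circles, with an asterisk where the lines differ by the direct test. Cacna2d2 lies at 2.26 in the PV line and -1.26 in the CaMK2a line, while Cacna2d1 lies at -1.08 and 0.84.

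The make-up of each family puts these levels together, as a gene's share of the summed RPKM of its family in a library. Scn1a made up 33.1 ± 8.28% of the sodium pore RPKM in the PV KA IP and 32.6 ± 3.38% in the PV PBS IP (SD, n = 4), and 11.3 ± 1.36% in the CaMK2a KA IP and 11 ± 0.672% in the CaMK2a PBS IP (SD, n = 3). Scn2a1 took the opposite place, with 16.6 ± 2.66% and 19.3 ± 2.18% in the PV KA and PBS IP, and 46.5 ± 2.64% and 45.3 ± 1.31% in the CaMK2a KA and PBS IP. The share of Scn3a in the sodium pore RPKM was 2.44 ± 0.64% in the CaMK2a KA IP, against 3.97 ± 0.489% in the PBS IP. It was 3.01 ± 0.549% in the CaMK2a KA input, against 5.11 ± 0.269% in the PBS input, and 3.08 ± 0.333% in the PV KA input, against 4.74 ± 0.336% in the PV PBS input. In the PV IP it was 1.21 ± 0.428% after KA, against 2.52 ± 0.462% after PBS.

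Among the alpha2delta genes Cacna2d2 made up 49 ± 10.2% in the PV KA IP and 51.2 ± 10.9% in the PV PBS IP, and 5.75 ± 2.23% and 4.13 ± 1.12% in the CaMK2a KA and PBS IP. Among the calcium pores Cacna1a made up 47.2 ± 7.48% and 44.1 ± 4.99% in the PV KA and PBS IP, with means of 21.4% and 22.7% in the CaMK2a KA and PBS IP. Among all Cacng genes in the tables the share of Cacng3 was 68.7 ± 7.71% in the CaMK2a KA IP, against 51.3 ± 2.49% in the PBS IP, and 33.8 ± 1.13% in the PV KA IP, against 23.4 ± 3.95% in the PV PBS IP. These shares were set up with the levels in view and are descriptions without a test.

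**Figure D4:**
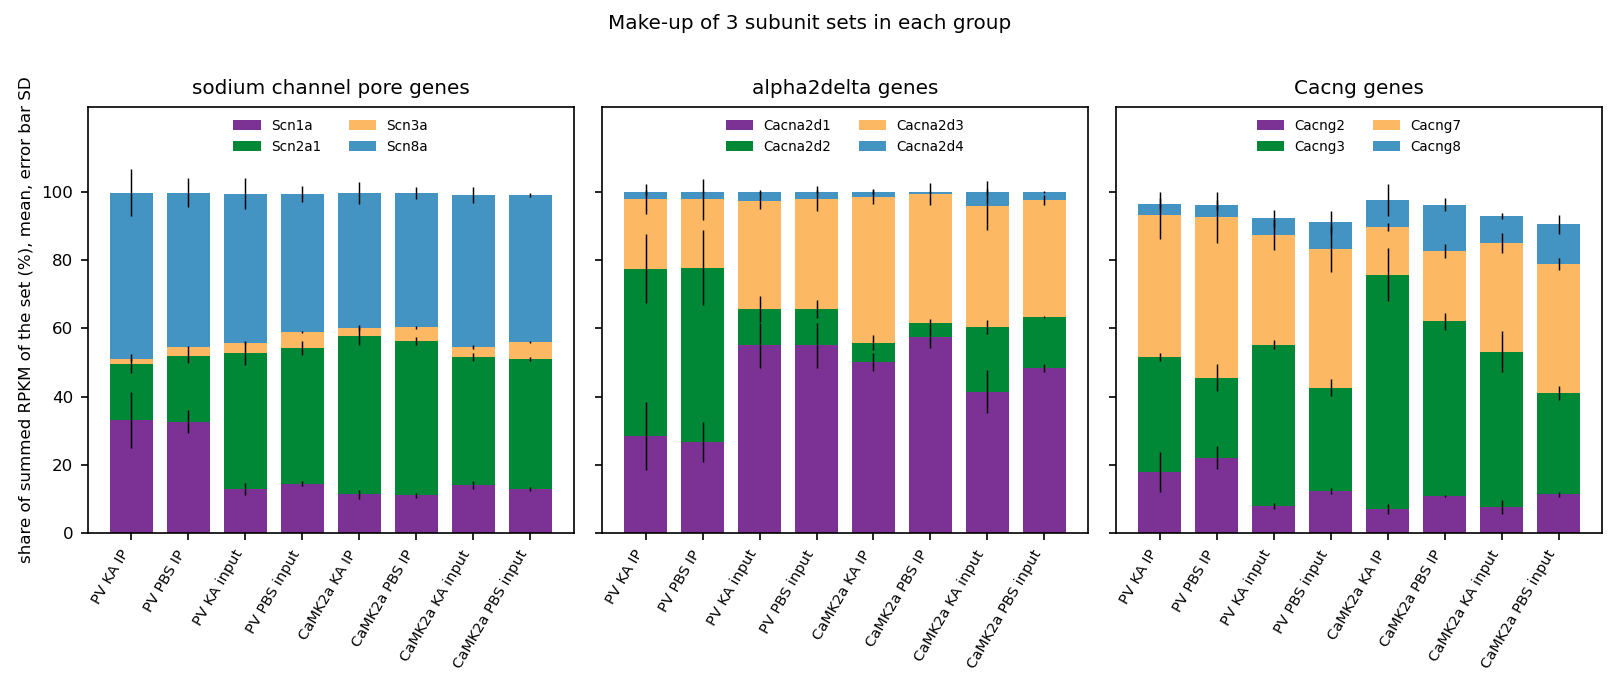
Mean share of the summed RPKM of its family held by each gene (y axis, percent; bars show SD over 3 CaMK2a or 4 PV libraries) for sodium pores, alpha2delta genes and Cacng genes in the 8 groups, with the lesser members of a family counted in the sum but not drawn. Scn1a holds about 33.1% of sodium pore RPKM in the PV KA IP and 11.3% in the CaMK2a KA IP, and Cacng3 holds 68.7% of its family in the CaMK2a KA IP, against 51.3% in the PBS IP.

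Other genes of the same machinery were read from 3 lists, chosen with earlier results of these data known. Their counts and medians beside all genes describe the listed genes and do not test the lists as sets. Of 11 calcium channel regulators listed, 7 were present and tested. After KA 5 rose in the CaMK2a IP, 5 in the CaMK2a input, 3 in the PV IP and 3 in the PV input, and 0 fell (edgeR). Over all genes 19.8%, 19.3%, 4.05% and 8.21% were called higher there. The regulators' median log2 fold change was 0.99, 0.95, 0.94 and 0.74, beside 0.01, -0.02, -0.02 and -0.02 over all genes. Gem and Rem2, small GTPases that bind calcium channel beta subunits and reduce the current of high-voltage channels, rose in all 4 fractions. Gem averaged 7.96 CPM in the CaMK2a KA IP, against 0.474 CPM in the PBS IP (4.10 ± 0.41), and 15.8 CPM in the PV KA IP, against 1.06 CPM in the PV PBS IP (3.87 ± 0.61). Rem2 averaged 60.6 CPM in the CaMK2a KA IP, against 12.7 CPM in the PBS IP (2.29 ± 0.18), and 21.1 CPM in the PV KA IP, against 6.82 CPM in the PV PBS IP (1.60 ± 0.39). Stac, an adaptor of L-type channels, rose by 0.99 ± 0.16 in the CaMK2a IP and 0.95 ± 0.30 in the input. Rrad, of the same GTPase family, averaged 6.18 CPM in the CaMK2a KA IP, against 0 reads in all 3 CaMK2a PBS IP libraries, at least 20.9-fold higher when 3 reads are put in each PBS library, and the list's median with Rrad at this bound was 0.99.

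Of 10 sodium channel partners listed, 7 were present and tested. Of these 1 rose and 2 fell in the CaMK2a IP, 2 fell in the CaMK2a input, none was called in the PV IP, and 1 rose and 1 fell in the PV input. Over all genes 35.1%, 35.0%, 4.85% and 11.6% were called in these comparisons, so the CaMK2a counts lie near the background. Fgf13, which binds the C-terminal tail of sodium channels, fell in the CaMK2a IP (-0.39 ± 0.09) and input (-0.45 ± 0.09). Fgf11, of the same family, fell in the CaMK2a IP (-0.54 ± 0.09), the CaMK2a input (-0.33 ± 0.11) and the PV input (-0.83 ± 0.17). Ank3, which encodes ankyrin-G, the anchor of sodium channels at the axon initial segment, rose in the CaMK2a IP (0.30 ± 0.08) and the PV input (0.56 ± 0.13). Of the 4 genes of the sodium leak complex, Nalcn, the leak pore, fell in the CaMK2a IP (-0.36 ± 0.09) and input (-0.54 ± 0.11), and Fam155a fell in the input (-0.38 ± 0.11).

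Markers of cell types moved with KA too. Over all genes 35.1% and 35.0% were called in the CaMK2a IP and input, and 4.85% and 11.6% in the PV IP and input. Of 5 pyramidal markers 2 fell in the CaMK2a IP (Neurod6 at -1.19 and Camk2a at -0.29) and in the CaMK2a input (-1.58 and -0.30). Their summed level was 7346.0 to 8870.7 CPM in the KA IP, against 9425.3 to 10871.0 CPM in the PBS IP, and 6892.7 to 7281.7 CPM in the KA input, against 8126.4 to 9248.5 CPM in the PBS input. Of 5 interneuron markers 2 rose in the CaMK2a IP, where the list summed to 135 to 249 CPM after KA, against 73.6 to 122 CPM after PBS. In the CaMK2a input 3 of 5 interneuron markers (830 to 910 CPM after KA, against 582 to 614 CPM after PBS), 3 of 3 endothelial markers (37.9 to 47.1 CPM, against 19.7 to 25 CPM) and 2 of 3 astrocyte markers (680 to 736 CPM, against 582 to 598 CPM) rose. In the PV input 1 of 5 pyramidal markers fell (Neurod6, -1.73) and 1 of 3 endothelial markers rose, with pyramidal sums of 7569.0 to 8367.8 CPM after KA, against 8693.8 to 9601.6 CPM after PBS. Of 5 microglial markers 1 rose and 2 fell in the CaMK2a input and 1 fell in the PV input. Of 3 dentate granule cell markers 1 rose and 1 fell in the CaMK2a IP, and 1 fell in each of the other fractions. The 3 oligodendrocyte and 3 precursor markers had 0 calls in all 4 KA comparisons by edgeR. In the PV IP 1 of 5 pyramidal markers fell (Neurod6, -1.32) and 0 interneuron, astrocyte or endothelial markers were called. No marker of these lists was at 0 in all libraries of a group. Their part in the changes of the channel genes was not tested.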

How the data were processed

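RNA-seq of RiboTag IP and input from CA1 was analysed from the deposited gene tables. Per the submitters' processing notes reads were aligned with BWA to mm10 (GRCm38) and compared with edgeR, versions not stated. The deposited counts are whole reads per gene and library, and were used for all tests. The deposited RPKM are reads per listed length and library total without TMM factors, computed by the authors. They were used to compare genes, for shares and for sums over subunits. Fold changes in the deposited tables are linear ratios, and the deposited p-value and FDR come from the authors' edgeR test. The deposited CPM column was not used. Lists of higher and of lower genes were joined into 1 table per comparison, and 0 of 189281 counts that tables share differed. Depth was 6.06 to 15.8 M counted reads per library, and at this depth 5 members held too few reads for any test.

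Groups follow the labels. Tests were edgeR 4.0.16 quasi-likelihood fits on all genes (R 4.3.3) with TMM normalization, low genes removed by filterByExpr (minimum count 10), prior count 0.125 and Benjamini-Hochberg adjusted p under 0.05. They were tested on simulated data. The SE divides the absolute log2 fold change by the root of the F statistic. Each comparison was fitted on its own groups, and differences of effects in a model of group means. DESeq2 1.42.0, other factors, no filter, a replicate block, PV replicates 1 to 3 alone and leaving out each library were alternatives. IP and input of 1 number share a lysate, so they are paired. The main fits took them as independent, and the replicate block was an alternative. Deviations from the group mean were compared between same-numbered KA and PBS libraries (8189 genes, pseudocount 0.5). Inputs correlated at 0.12 to 0.34 for CaMK2a-Cre and at 0.29 to 0.81 for PV-Cre, and IP libraries at -0.3 to 0.55. Inputs of different numbers reached 0.19 for CaMK2a-Cre and 0.38 for PV-Cre. In the PV line replicate 4 alone stood apart from other numbers, in input (0.81) and IP (0.55). The main fits did not pair KA with PBS, and the replicate block was an alternative. Python 3.11.15, numpy 2.4.6, pandas 2.3.3 and matplotlib 3.10.9 were used for tables and figures.

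The members, gene lists and tests were chosen with earlier results of these data known. Every member could be named with its level and fold change. Values in every library were given for Scn1a and Scn3a and, per comparison, for called members with a mean log2 CPM of at least 3 and no overlap between groups, up to 4 of the largest in each direction (2 for differences). For members shown by this rule the lack of overlap was a condition of their choice and adds no support to their calls. Other members shown library by library were chosen after their values were seen. Scn2a1, the older symbol of Scn2a, was counted as a pore subunit although the written pattern for pore symbols did not match it. Some members are counted but not reported by name here.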

Additional observations from a re-analysis of the deposited data

Results flagged for a closer look

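In 4 of 76 combinations of gene and PV group checked, 1 library lay further from its group than Dixon's 95% limit, and chance alone marks about 1 in 20. All 4 were replicate 4: Cacna1e in the PV KA IP, lowest at 248 CPM, Cacna1i in the PV KA input, highest at 39.9 CPM, Cacna2d1 in the PV PBS input, lowest at 199 CPM, and Scn4b in the PV KA IP, highest at 25.7 CPM. For 14 members reported here the enrichment of IP over input after PBS differed between the PV and the CaMK2a line by the direct test. The difference, PV minus CaMK2a on the log2 scale, was 3.47 for Cacna2d2, 1.93 for Cacng4, 1.78 for Cacng7, 1.58 for Cacng2, 1.37 for Cacna2d4, 1.18 for Cacna1a and 1.12 for Scn1a. It was -1.98 for Cacna2d1, -1.70 for Scn3b, -1.69 for Cacnb1, -1.57 for Scn2a1, -1.48 for Cacna2d3, -1.21 for Cacna1e and -0.55 for Cacnb3.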

How the results depend on the processing

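Values were recomputed under each setting for members called in the main fit and for Scn1a and Scn3a. Direction and side of the threshold were kept in 120 with DESeq2, 120 with relative log expression factors, 121 without a filter and 112 with upper-quartile factors. The call was lost in 1, 2, 2 and 10, in that order. The replicate block kept 120 and gained a call in 3. PV replicates 1 to 3 alone kept 49, gained 3 and lost 2. Other members called only under an alternative setting are outside this tally. With upper-quartile factors the median of all genes was -0.15 and -0.13 in the CaMK2a IP over input after KA and PBS, against -0.02 and -0.01 with TMM factors, and 0.13 in the difference of enrichments, against 0.04. Members called higher after KA in the PV IP were 0 with upper-quartile factors, and members called lower there were 1 with DESeq2, 2 with the block and 2 with PV replicates 1 to 3 alone. In the PV IP, replicate 4 alone correlated more between KA and PBS of 1 number than across numbers. All genes there split into 651 higher and 248 lower with the block, against 450 and 89 without it. In the PV input 2 were higher and 12 lower with the block, and 2 higher and 9 lower with PV replicates 1 to 3. Lower in the PV IP than in input after KA were 3 with upper-quartile factors, 4 with the block and 3 with PV replicates 1 to 3, and after PBS 9 with the block. With PV replicates 1 to 3, 11 members were more enriched in the CaMK2a line. The block changed no other count of members called by over 1.5 times. The causes were not tested.

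Leaving out 1 library at a time gave 1 to 3 higher and 9 to 12 lower members in the CaMK2a IP after KA, 1 to 2 and 10 to 12 in the CaMK2a input, 0 to 1 and 0 to 1 in the PV IP, and 1 and 4 to 6 in the PV input. For IP over input it gave 6 to 9 and 0 to 2 in the PV line after KA, 8 to 10 and 3 to 5 in the PV line after PBS, 9 to 12 and 6 to 7 in the CaMK2a line after KA and 12 to 14 and 9 to 10 after PBS. For the difference of enrichments it gave 5 to 8 and 6 to 9. In all, 100 leave-out values lost their call and 9 turned their sign. Those 9, and the others that turned, were differences of the Scn3a effect near 0, called in no fit. PV IP minus CaMK2a IP, -0.03 as reported, was 0.01 with relative log expression factors, 0.01 with upper-quartile factors, 0.01 with DESeq2 and 0.05 with PV replicates 1 to 3, and ran from -0.26 to 0.21 over the leave-outs. IP minus input in the PV line ran from -0.35 to 0.10 for Scn3a.

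As shares of reads not divided by length, Scn1a held 9.12% and 8.87% of sodium pore reads in the CaMK2a KA and PBS IP, 11.3% and 10.3% in the inputs, 25.8% in the PV PBS IP, and 10.2% and 11.6% in the PV KA and PBS input. Scn2a1 held 38.9% and 37.8%, 30.6% and 31.2%, 13.4% and 15.9% in the PV IP, and 32.8% and 32.9% in the PV input. Scn8a, the longest, held 49.3% and 49.2%, 54.5% and 52.8%, 59.1% and 55.7% in the PV IP, and 53.6% and 50.2% in the PV input. For other families 122 such values, an alternative chosen after the data were seen, moved by more than their SD.

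Pools of mice, 3 or 4 per group, limit precision, most in the PV IP with its coefficient of variation of 44.3%. Members with few reads, such as Scn7a, Cacng4 and Cacna2d4, rest on low depth. Input RNA of 2.5 ng was amplified in the PV line. Reads are not strand-resolved as far as the sources used here say.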
